A study of Mus musculus with 4 samples.

Results

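The 35 nuclear genes followed here encode subunits of respiratory complexes II, III and IV, of the ATP synthase (complex V), and cytochrome c. They were found on the array through the RefSeq accession that each probe carries, looked up under the gene's present or former symbol. All 35 were found, among 16358 named genes on the array and 11509 that were measured well enough to be tested. By complex they were 4 genes of complex II, 6 of complex III, 10 of complex IV, 14 of complex V and 1 for cytochrome c. In bulk RNA labelled as hepatocyte, 1 of the 35, Cox6c, passed the test, and it was lower in HepKO than in WT. None of the other 34 passed. By the mean of both pairs the complex II genes had the lowest median. They also had it in the pair labelled male, whereas in the pair labelled female complex IV was lower and the order differed between the arrays.

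The study asked how liver cells differ when they lack Pnpt1, the gene of polynucleotide phosphorylase, an RNA-processing exoribonuclease of mitochondria. HepKO mice were Albumin-Cre/wt Pnpt1 fl/fl and WT mice were Pnpt1 fl/fl without Cre, so the floxed alleles were shared by both genotypes. All were C57BL/6J. Albumin-Cre acts in hepatocytes, and the cells were taken from perfused livers with no sort named. In 1 pair, labelled male and 12.29 weeks old (12.9 weeks elsewhere in the labels), RNA of 1 HepKO mouse was set against that of 1 WT littermate, and in the other, labelled female and 4.29 weeks old, likewise. Each pair was hybridised on 2 two-colour Agilent arrays, with HepKO in Cy5 on the first and in Cy3 on the second. The 4 arrays therefore hold 2 biological replicates, and since each pair had its own slide, the slide cannot be told apart from the age and the sex of a pair. In such bulk RNA, fewer cells of a type and less RNA per cell cannot be told apart.

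The sex labels ran against the data. Both arrays labelled male showed Xist above background and neither array labelled female did, and the Y-linked genes Kdm5d, Ddx3y and Eif2s3y did the reverse, in HepKO and WT channels alike. The pairs are called by their labels below, and each comparison of HepKO with WT stays within a pair. Pnpt1 itself was not clearly lower: its brighter probe gave log2 ratios of HepKO over WT of 0.31, 0.058, -0.38 and -0.38 and its dimmer probe -0.67, -0.32, -0.50 and -0.60, in the array order given below. Neither Pnpt1 probe passed the test, and whether they lie in the deleted part is not given. Arrays had 53.6% to 58.6% of probes well above background in the HepKO channel and 48.2% to 54.6% in the WT channel, with no saturated spot.

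Values are log2 ratios of HepKO over WT, in the order male pair with HepKO in Cy5, male pair with HepKO in Cy3, female pair with HepKO in Cy5 and female pair with HepKO in Cy3. The mean is over the 2 pairs, with the moderated standard error of limma (n = 2 pairs), and p-values come from limma with Benjamini-Hochberg adjustment over all 11509 genes. A gene passed at an adjusted p below 0.05. The labels name separate mice for the 2 pairs, and 2 pairs limit the precision: the median standard error of the 35 genes was 0.145. Spot brightness depends on the probe, so it is compared between HepKO and WT for 1 probe and not between genes as an RNA level.

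Complexes II to V sit in the inner mitochondrial membrane. Complex II, succinate dehydrogenase, passes electrons from succinate to ubiquinone and is also an enzyme of the citric acid cycle. Complex III passes them on to cytochrome c, complex IV to oxygen, and complex V uses the proton gradient built by complexes I, III and IV to make ATP. All subunits of complex II are encoded in the nucleus, whereas complexes III, IV and V each combine nuclear subunits with subunits made inside mitochondria. The hepatocyte is rich in mitochondria and depends on them for fatty acid oxidation, gluconeogenesis and the urea cycle.

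Promoters of these genes are known for binding sites of NRF1, of ETS factors such as GABP and of YY1. RefSeq promoters of build GRCm38.p6 (250 bases before to 50 after the start of the gene) were at hand for 27 of the 35 genes. The 250 bases upstream are printed for the complex II genes that the table holds, because complex II had the lowest median over both pairs, and for Cox6a1 and Cox7a2, because isoforms of both passed the test. Capitals mark matches, on either strand, to the full NRF1 palindrome (the first capital run of Cox6a1), to its relaxed form, in which the sixth base is free and which includes the full form, to the ETS motif CCGGAAG or to the YY1 motif AAGATGGC.
Sdha promoter, chr13:74350241-74350490, minus strand: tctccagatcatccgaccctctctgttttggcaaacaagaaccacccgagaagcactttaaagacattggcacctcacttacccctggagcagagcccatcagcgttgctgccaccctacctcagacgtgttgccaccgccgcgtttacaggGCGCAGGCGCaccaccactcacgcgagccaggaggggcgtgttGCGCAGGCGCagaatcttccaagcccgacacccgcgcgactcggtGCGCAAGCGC
Sdhb promoter, chr4:140961021-140961270, plus strand: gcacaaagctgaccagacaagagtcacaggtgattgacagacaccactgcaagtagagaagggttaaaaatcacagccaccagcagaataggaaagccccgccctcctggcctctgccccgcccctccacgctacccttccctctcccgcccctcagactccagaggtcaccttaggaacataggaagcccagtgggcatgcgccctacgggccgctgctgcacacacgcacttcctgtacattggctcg
Sdhd promoter, chr9:50603850-50604099, minus strand: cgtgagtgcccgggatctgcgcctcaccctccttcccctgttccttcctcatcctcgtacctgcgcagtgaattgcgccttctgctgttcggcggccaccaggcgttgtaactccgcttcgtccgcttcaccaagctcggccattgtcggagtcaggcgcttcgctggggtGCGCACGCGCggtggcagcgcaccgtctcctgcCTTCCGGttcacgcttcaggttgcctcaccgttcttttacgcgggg
Cox6a1 promoter, chr5:115348959-115349208, minus strand: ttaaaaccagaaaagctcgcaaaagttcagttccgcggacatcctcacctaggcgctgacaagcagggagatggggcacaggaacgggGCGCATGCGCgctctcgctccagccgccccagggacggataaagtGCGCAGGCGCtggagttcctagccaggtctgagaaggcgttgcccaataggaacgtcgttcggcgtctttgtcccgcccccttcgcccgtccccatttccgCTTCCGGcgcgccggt
Cox7a2 promoter, chr9:79759854-79760103, minus strand: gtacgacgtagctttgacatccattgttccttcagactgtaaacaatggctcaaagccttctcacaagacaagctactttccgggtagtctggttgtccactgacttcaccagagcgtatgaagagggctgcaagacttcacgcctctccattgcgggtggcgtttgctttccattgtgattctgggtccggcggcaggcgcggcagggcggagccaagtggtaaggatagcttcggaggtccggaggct
Sdha holds 3 matches to the relaxed NRF1 motif, and the one nearest its start begins 10 bases before it. Sdhd holds 1 such match and 1 ETS match, and Cox6a1 holds 2 such matches, 1 of them the full palindrome, and an ETS match. Sdhb has its ETS match 7 bases after the start, outside the printed stretch, and Cox7a2 has none in the stretch shown.

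Over the 300-base windows, the relaxed NRF1 motif was present in 9 of 27 member promoters (33.3%), against 10.8% of 9263 tested genes with a promoter and 5.19% of all 27025 genes in the table. The full palindrome was in 3 of 27 (11.1%), against 2.09% of tested genes and 1.07% of all. The ETS motif was in 10 of 27 (37.0%), against 19.0% of tested genes and 9.93% of all. The YY1 motif was in 3 of 27 (11.1%), against 5.0% of tested genes and 3.19% of all, and all 3 (Atp5f1, Atp5j and Atp5j2) belong to complex V. These matches describe the printed letters and are not measured binding.

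Across the 35 genes the median log2 ratio was -0.15, with a range of -0.83 to 0.41, against a median of 0.083 over all genes tested. The mean was below 0 for 27 genes (77.1%), against 42.4% of all genes. That number was 18 with HepKO in Cy5 alone, 29 with HepKO in Cy3 alone and 33 with median centring in place of loess. Signs were the same on all 4 arrays for 17 genes: 14 (40.0%) were below 0 throughout, against 25.0% of all genes, and 3 (8.57%) were above 0 throughout, against 39.4% of all genes. By limma, 1 gene (2.86%) passed the test downward, against 3.71% of all genes tested, and none passed it upward, against 12.0%. At an unadjusted p below 0.05, 6 of the 35 were lower, against 12.7% of all genes, and 1 was higher, against 23.6%. The share of genes past the threshold was thus near the background downward, while the shares by sign differed from it. No gene at all passed when the background model was fitted on every spot, outliers included (smallest adjusted p 0.0741 by limma), or when dim probes were kept (0.0691), so each call given below ends under those settings.

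The 95% intervals rest on 2 pair means and leave out differences between dyes and ways of processing. With median centring, for instance, Cox6a1 moved from 0.35 to -0.25, outside its interval of -0.053 to 0.74. The 95% interval of the log2 ratio held 0 for 28 genes, and for 33 it lay wholly within a 2-fold change in either direction. By the brightest probes and the reported processing, a mean change of at least 1.5-fold was seen in 2 genes, Cox6c and Cox7c. That count depends on probe and processing. Sdha had -0.57 by its brightest probe and -0.755 over its probes, and Cox7c had -0.60 as reported and -0.45 with median centring. Both genotypes were well above background on all 4 arrays for all 35 genes, so none of the ratios is a bound.

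**Figure D1:**
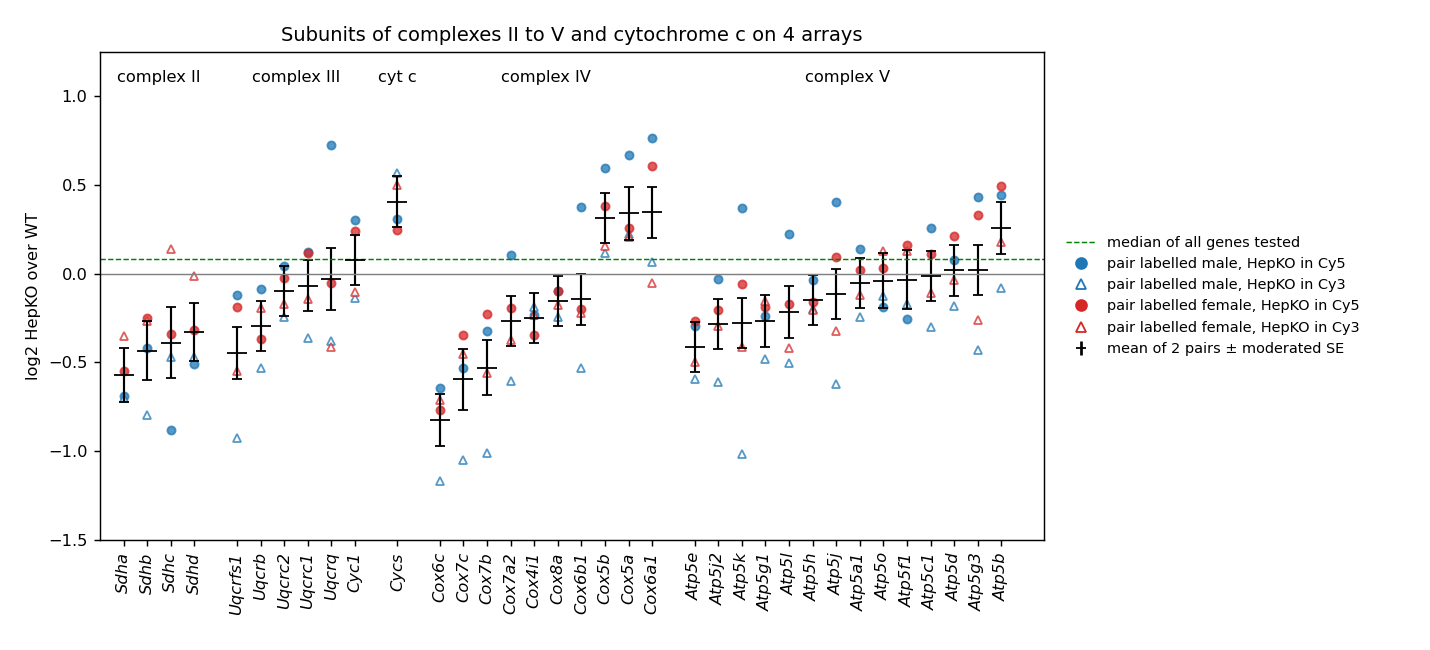
Log2 ratio of HepKO over WT (vertical axis) for each of the 35 genes (horizontal axis), grouped by complex and ordered by mean within it. Circles are arrays with HepKO in Cy5 and triangles arrays with HepKO in Cy3, blue for the pair labelled male and red for the pair labelled female; black bars are the mean of 2 pairs with its moderated standard error, and the green dashed line is the median of all genes tested, 0.083. All 4 complex II genes have a mean below 0, while complexes III, IV and V hold genes on either side.

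Complex II had the lowest median over both pairs. Its 4 genes had a median of -0.41, all 4 means were below 0, and 3 of the 4 were below 0 on every array. The group median was -0.64 in the male pair and -0.21 in the female pair, so the distance from WT was larger in the male pair. In the female pair complex IV was lower, at -0.25, and the order differed between the arrays of that pair. On the female array with HepKO in Cy5 complex II was the lowest, at -0.33 against -0.039, -0.20 and 0.027 for complexes III, IV and V. On the female array with HepKO in Cy3 complex II was the nearest to 0 of the 4 complexes, at -0.14 against -0.18, -0.23 and -0.18. None of the 4 passed the test.

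Sdha, the flavoprotein that holds the succinate-oxidising site, had log2 ratios of -0.69, -0.70, -0.55 and -0.35. Its level (log2 normalized intensity) was 12.09, 12.10, 12.45 and 12.56 in HepKO, against 12.78, 12.80, 13.00 and 12.91 in WT. Every HepKO value lay below every WT value. The mean was -0.57 ± 0.15 with an adjusted p of 0.0804 by limma, short of the threshold. A second Sdha probe lay further down, at -1.20, -1.27, -0.58 and -0.69 (mean -0.94 ± 0.20, adjusted p 0.0650 over all probes by limma), so both probes were below 0 on all 4 arrays.

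Sdhb, the iron-sulfur subunit that carries the electrons onward, had log2 ratios of -0.42, -0.80, -0.25 and -0.27 (mean -0.43 ± 0.17, adjusted p 0.147 by limma). Its levels were 12.92, 12.83, 13.36 and 13.23 in HepKO and 13.34, 13.62, 13.61 and 13.50 in WT, and they overlapped only because the female HepKO array in Cy5 reached just above the lowest WT array. Sdhc, a membrane anchor, had -0.88, -0.47, -0.34 and 0.14 (mean -0.39 ± 0.20, adjusted p 0.242 by limma). Its second female array was the only complex II value above 0. Sdhd, the other anchor, had -0.51, -0.47, -0.32 and -0.015 (mean -0.33 ± 0.16, adjusted p 0.227 by limma). In all 4 genes the male pair lay further below 0 than the female pair, which was not tested because each pair is 1 replicate.

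The 6 genes of complex III had a median of -0.083, with 5 means below 0, 2 of them on every array, and none passed the test. The Rieske iron-sulfur protein Uqcrfs1, which hands electrons to cytochrome c1, had -0.12, -0.93, -0.19 and -0.55 (mean -0.45 ± 0.15, adjusted p 0.115 by limma). Its HepKO levels were 12.80, 12.42, 12.99 and 12.55, against WT levels of 12.92, 13.35, 13.18 and 13.09. The arrays with HepKO in Cy3 carried most of that distance in both pairs. Uqcrb, a small nuclear subunit, had -0.089, -0.53, -0.37 and -0.19 (mean -0.30 ± 0.14, adjusted p 0.215 by limma).

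The core proteins Uqcrc1 and Uqcrc2 had means of -0.067 and -0.098 by their brightest probes, and a second Uqcrc1 probe had -0.17 with all 4 arrays below 0. For Uqcrc2 the arrays gave 0.045, -0.24, -0.026 and -0.17 (± 0.14, adjusted p 0.650 by limma), a spread wider than its mean. Uqcrq, another small subunit, had a mean of -0.031 with arrays from -0.42 to 0.72. Cyc1, cytochrome c1, was the single complex III gene with a mean above 0, at 0.30, -0.14, 0.24 and -0.10 (mean 0.076 ± 0.14, adjusted p 0.728 by limma). Its sign followed the dye in both pairs.

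Cycs, the somatic cytochrome c that shuttles between complexes III and IV, had the highest ratio of the 35 by its brightest probe, at 0.31, 0.57, 0.25 and 0.50 (mean 0.41 ± 0.14, adjusted p 0.128 by limma). Levels of that probe were 13.57, 13.59, 13.33 and 13.43 in HepKO, against 13.26, 13.02, 13.08 and 12.93 in WT, without overlap. Cycs was measured by 2 further probes, which went the other way on every array. One gave -0.30, -0.64, -0.046 and -0.25 (mean -0.31) and the other -0.31, -0.73, -0.018 and -0.31 (mean -0.34). The mean over the 3 Cycs probes was -0.082, so no direction is given for Cycs. Signal from near-identical processed copies of this gene cannot be told apart from its own here.

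**Figure D2:**
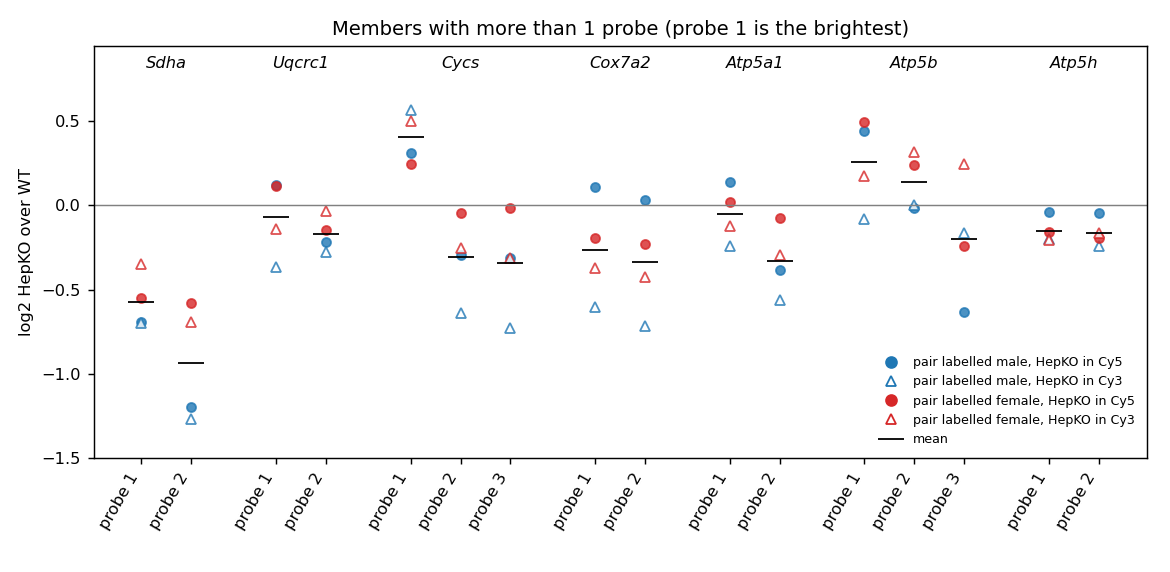
Log2 ratio of HepKO over WT (vertical axis) on each array for every probe of the 7 genes measured by more than 1 probe (horizontal axis, brightest probe first). Circles are HepKO in Cy5, triangles HepKO in Cy3, blue the male pair, red the female pair and black bars the mean. Both Sdha probes lie below 0 on all arrays, whereas the brightest Cycs probe (mean 0.41) lies above 0 and the other Cycs probes (means -0.31 and -0.34) below.

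Complex IV held the widest spread, from -0.83 for Cox6c to 0.35 for Cox6a1. The median of its 10 genes was -0.20, with 7 means below 0, 5 genes below 0 on every array and 2 above 0 on every array. Cox6c, a small nuclear subunit that spans the membrane, had log2 ratios of -0.65, -1.17, -0.77 and -0.72. Its levels were 12.37, 12.31, 12.63 and 12.48 in HepKO and 13.02, 13.48, 13.40 and 13.20 in WT, and the groups did not overlap. Cox6c fell to 0.564 of the WT level (mean log2 ratio -0.83 ± 0.15, 95% interval -1.23 to -0.42, adjusted p 0.0381 by limma). The call was lost without the second male array (adjusted p 0.0769) or without the first female array (adjusted p 0.0519), with log2 ratios of -0.70 and -0.81, and also with the scanner software's log ratios (0.0724) and with HepKO in Cy5 alone (0.0570).

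Cox7c and Cox7b, small subunits of the same complex, came next. Cox7c had -0.53, -1.05, -0.35 and -0.45 (mean -0.60 ± 0.17, adjusted p 0.0908 by limma). Its levels were 9.39 and 8.62 in the male HepKO channel and 6.88 and 6.62 in the female HepKO channel, against 9.93 and 9.67 in male WT and 7.23 and 7.07 in female WT. This probe was thus much dimmer in the female pair in both genotypes. With the scanner software's own log ratios Cox7c reached -1.01 (adjusted p 0.0466 by limma). Without background subtraction, and so without the offset of 50, it had -0.61 (adjusted p 0.0888 by limma). It had -0.49 with normexp fitted on all spots and -0.45 with median centring (adjusted p 0.245 and 0.156 by limma). What part the offset had in the Cox7c ratio was not tested.

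Cox7b had -0.32, -1.01, -0.23 and -0.56 (mean -0.53 ± 0.16, adjusted p 0.0955 by limma), and its HepKO levels of 12.84, 12.66, 13.13 and 12.86 all lay below the WT levels of 13.17, 13.67, 13.35 and 13.43. Cox4i1, the regulatory subunit where ATP binds, was below 0 on all arrays with a mean of -0.25 (adjusted p 0.274 by limma), and so was Cox8a with a mean of -0.15. Cox7a2 and Cox6b1 had means of -0.27 and -0.15, each with its first male array above 0.

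The 3 complex IV genes with means above 0 were Cox6a1, Cox5a and Cox5b. Cox6a1, the liver isoform of a subunit that contacts the dimer interface, had 0.77, 0.063, 0.61 and -0.055 (mean 0.35 ± 0.15, adjusted p 0.175 by limma). Its arrays with HepKO in Cy5 were high in both pairs and those with HepKO in Cy3 near 0. Cox5a, the subunit on the matrix side, had 0.67, 0.22, 0.26 and 0.21 (mean 0.34 ± 0.15, adjusted p 0.191 by limma), and Cox5b, a zinc-binding subunit, had 0.60, 0.12, 0.38 and 0.16 (mean 0.31 ± 0.14, adjusted p 0.200 by limma). HepKO levels of Cox5a and Cox5b lay above all WT levels. These values passed no test, and among the 10 subunits of the enzyme there was a single call.

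The 14 genes of complex V had a median of -0.082 (-0.38 with median centring in place of loess, with all 14 below 0, and -0.26 with HepKO in Cy3 alone), 11 means below 0, 4 genes below 0 on every array and none above 0 on every array; no gene passed the test. The 2 dye orientations gave opposite signs for 8 of the 14 genes in the male pair and for 5 in the female pair. Among the F1 subunits, Atp5a1 (alpha), Atp5c1 (gamma) and Atp5d (delta) had means of -0.051, -0.012 and 0.018. A second Atp5a1 probe lay below 0 on all arrays, at -0.38, -0.56, -0.074 and -0.30 (mean -0.33). Atp5b, the catalytic beta subunit, had 0.44, -0.082, 0.50 and 0.18 (mean 0.26 ± 0.15, adjusted p 0.274 by limma). Its 2 further probes had means of 0.14 and -0.20, so the Atp5b probes differed in sign.

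Atp5e, the epsilon subunit of the F1 stalk, was the lowest of complex V, at -0.30, -0.59, -0.27 and -0.50 (mean -0.41 ± 0.14, adjusted p 0.125 by limma). Levels of Atp5e were 14.92, 14.73, 15.03 and 14.72 in HepKO, against 15.22, 15.32, 15.29 and 15.22 in WT, with no overlap. In the stalk and membrane part, Atp5j2 (subunit f) had -0.031, -0.61, -0.20 and -0.29 (mean -0.28 ± 0.14, adjusted p 0.232 by limma). Atp5k (subunit e) had 0.37, -1.02, -0.058 and -0.41 (mean -0.28 ± 0.14, adjusted p 0.239 by limma). The male arrays of Atp5k lay on opposite sides of 0, so its mean rests on the balance of the dyes.

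The remaining complex V genes had smaller means. Atp5g1 and Atp5g3, 2 of the genes for the same c-ring subunit, had -0.27 and 0.018. Atp5h (subunit d) was below 0 on all arrays with a mean of -0.15, Atp5l (subunit g) had -0.22 and Atp5j (coupling factor 6) had -0.11. Atp5f1 (subunit b) and Atp5o (the oligomycin-sensitivity subunit) had -0.036 and -0.039, with pairs on opposite sides of 0.

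The HepKO and WT levels over the 4 arrays did not overlap for 10 of the 35 genes. HepKO was below WT throughout in 7 (20.0%), against 17.1% of all genes tested: Sdha, Cox4i1, Cox6c, Cox7b, Atp5e, Atp5g1 and Atp5h. It was above WT throughout in 3 (8.57%), against 30.7% of all genes: Cox5a, Cox5b and the brightest probe of Cycs, whose other probes went the other way. The downward share was near the background.

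**Figure D3:**
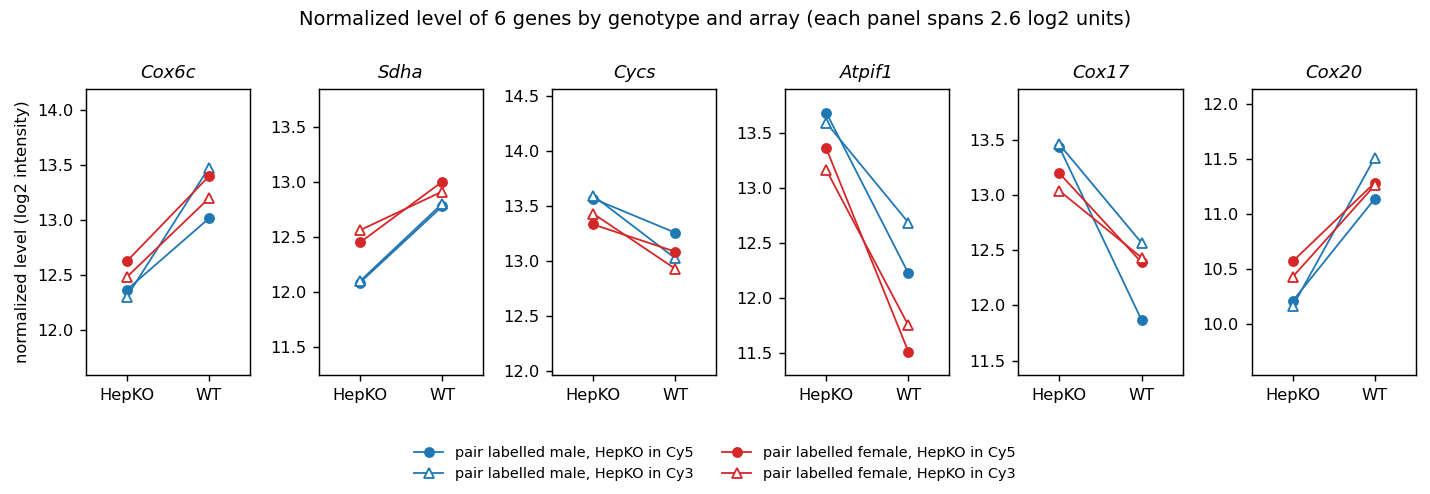
Normalized level (log2 intensity, vertical axis; each panel spans 2.6 log2 units) of 6 genes in HepKO (left) and WT (right), with each line joining the channels of 1 array. Cox6c, Sdha and Cox20 are lower in HepKO on every array, and Cycs (brightest probe), Atpif1 and Cox17 are higher.

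Dye orientation moved with these ratios. Over the 35 genes the median was 0.045 and -0.43 on the male arrays and -0.096 and -0.19 on the female arrays, so the arrays with HepKO in Cy3 gave the lower median in both pairs. The Cy5 value exceeded the Cy3 value in both pairs for 25 of the 35 genes, against 37.8% of all genes tested. By complex, the Cy5 arrays alone gave medians of -0.51 for complex II, 0.064 for complex III, -0.071 for complex IV and 0.053 for complex V, and the Cy3 arrays alone -0.38, -0.31, -0.30 and -0.26 in the same order. Of complexes II to V, complex II alone had a median below 0 on each of the 4 arrays, at -0.60, -0.59, -0.33 and -0.14, and complex I had one too, at -0.11, -0.51, -0.18 and -0.32.

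Brightness also moved with the ratios. By spot brightness 31 of the 35 genes fell in the brightest 1151 of the genes tested, whose median ratio was -0.031 and of which 32.5% were below 0 on all arrays, whereas 40.0% of the 35 were. Among the 35, brighter genes had higher ratios (Spearman rho 0.678, n = 35 genes that share the arrays), whereas over all 11509 genes rho was -0.132. Median probe brightness was 12.94 for complex II, against 14.20, 13.86 and 14.44 for complexes III, IV and V. What part brightness or dye had in the medians of complexes II, III, IV and V was not tested.

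**Figure D4:**
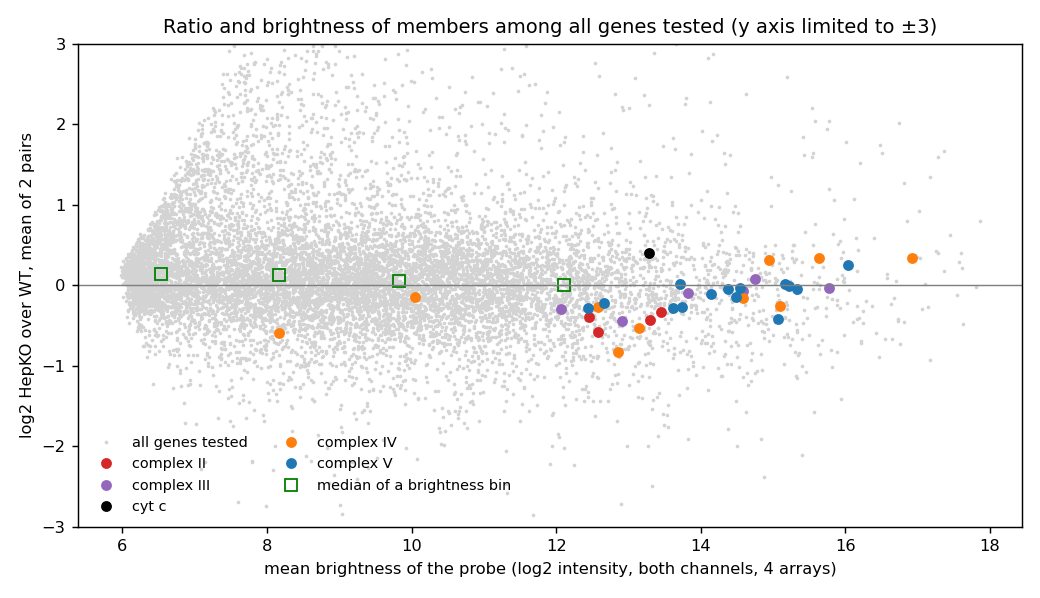
Mean log2 ratio of HepKO over WT (vertical axis, shown within ±3) against mean probe brightness (log2 intensity, horizontal axis) for all genes tested in grey, with the 35 genes coloured by complex. Green squares are the medians of 4 brightness bins of equal size (0.14, 0.12, 0.058 and -0.00079 from dim to bright). Of the 35 genes, 31 are among the brightest 1151, while Cox7c and Cox6b1 lie further left, and the 4 complex II genes lie below 0.

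The order of the complexes was checked under 15 alternative ways of processing. Complex II had the lowest median of the 4 in all 16 settings, the reported one included, between -0.57 and -0.35. Each setting keeps an array of the male pair, and the female pair by itself gave -0.21 for complex II, against -0.17, -0.25 and -0.082 for complexes III, IV and V. With median centring complexes III, IV and V moved to -0.37, -0.41 and -0.38. The medians of complexes III and V were above 0 when the arrays with HepKO in Cy5 were used alone, and also without the second male array (0.013 and 0.0045). That the 4 genes of complex II differ from the other complexes was not tested, since genes on the same arrays are not replicates.

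**Figure D5:**
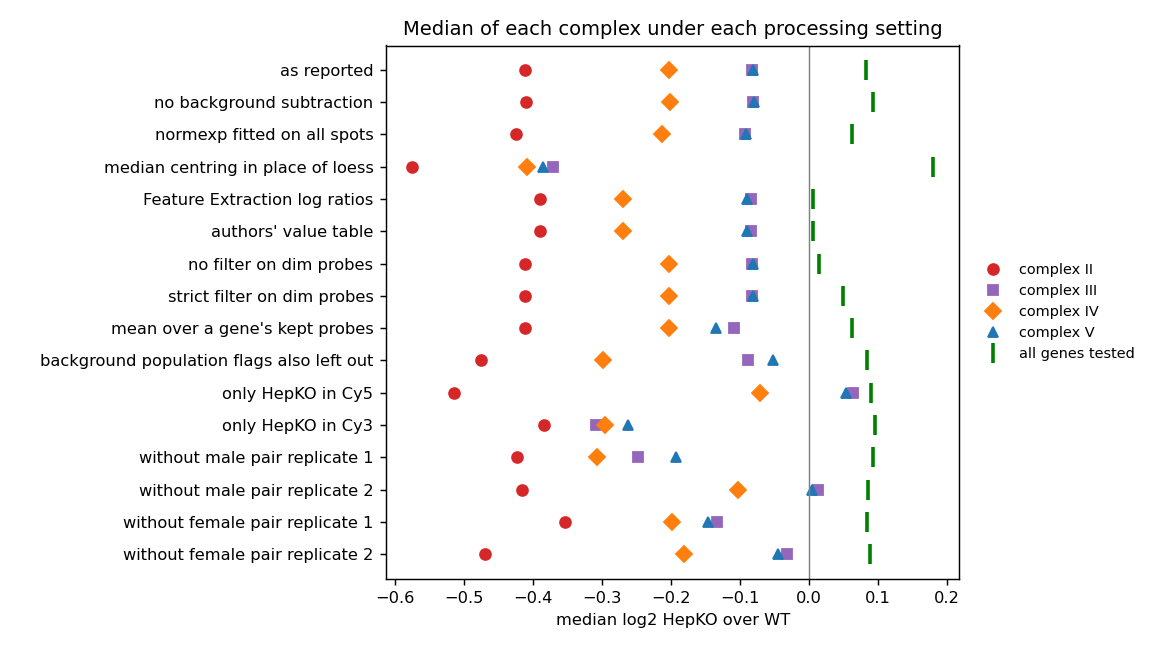
Median log2 ratio of HepKO over WT (horizontal axis) of complexes II (circles), III (squares), IV (diamonds) and V (triangles) under each of the 16 settings (vertical axis), with the median of all genes tested as a green bar. Complex II is leftmost in every row, between -0.57 and -0.35, and complexes III and V cross 0 in the rows with HepKO in Cy5 alone and without the second male array.

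Some other genes of the same enzymes passed the test. Of 18 further subunits, isoforms and regulators of complexes II to V, 13 were measured, with a median of -0.20, and limma called 2 higher and 1 lower. Of all genes tested, 12.0% were called higher and 3.71% lower, for comparison here and with the lists that follow. Whether these lists differ from all genes tested was not tested. Atpif1, the inhibitor that blocks ATP hydrolysis by complex V, rose, at 1.46, 0.91, 1.84 and 1.41 (mean 1.40 ± 0.18, adjusted p 0.0218 by limma). Its levels were 13.68, 13.59, 13.36 and 13.16 in HepKO, against 12.22, 12.68, 11.51 and 11.75 in WT. The 14 complex V genes themselves ranged from -0.41 to 0.26.

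Isoforms that are typical of muscle went both ways. Cox7a1, the heart and muscle isoform beside Cox7a2, fell, at -0.36, -1.03, -0.89 and -0.94 (mean -0.81 ± 0.15, adjusted p 0.0418 by limma), while Cox7a2 had -0.27. The adjusted p of Cox7a1 was 0.137 without the second male array and 0.0535 without the first female array. Cox6a2, the muscle isoform beside Cox6a1, rose, at 0.96, 0.84, 0.89 and 0.84 (mean 0.88 ± 0.14, adjusted p 0.0316 by limma), but it was dim: it was above background on 4 arrays in HepKO and on 2 of 4 in WT. Its log2 ratio was 2.79 with the scanner software's log ratios, so the size of the Cox6a2 change is not settled. The complex III subunits Uqcr10, Uqcr11 and Uqcrh, outside the 35, had means of 0.32, -0.45 and -0.44 and passed no test.

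Among 22 measured of 25 assembly factors of complex IV the median was -0.13. Of them 1 was called higher and 1 lower, against 12.0% and 3.71% of all genes tested. Cox17, the copper chaperone that feeds the enzyme's copper centres, rose, at 1.57, 0.89, 0.81 and 0.61 (mean 0.97 ± 0.19, adjusted p 0.0458 by limma). Cox20, which helps the mitochondrially made subunit 2 mature, fell, at -0.93, -1.35, -0.71 and -0.83 (mean -0.96 ± 0.17, adjusted p 0.0370 by limma). HepKO levels of Cox20 were 10.21, 10.16, 10.57 and 10.43, against WT levels of 11.14, 11.51, 11.28 and 11.26. Without the second male array the adjusted p was 0.0769 for Cox17 and 0.0569 for Cox20, and that of Cox17 was 0.0713 without the first female array and 0.0516 with background population flags also left out.

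Of the 4 assembly factors of complex V, all measured, the median was -0.10 and Fmc1 fell, at -1.05, -1.16, -0.86 and -0.74 (mean -0.96 ± 0.16, adjusted p 0.0341 by limma). In yeast, Fmc1 is needed to assemble the F1 part at high temperature. Its adjusted p was 0.0531 without the second male array and 0.0501 without the first female array. The calls of Cox7a1, Cox17, Cox20 and Fmc1 also ended with the scanner software's log ratios (adjusted p 0.0507, 0.0735, 0.0510 and 0.0581 in that order), those of Cox7a1 and Cox20 with median centring (0.0649 and 0.0517), and that of Cox7a1 with HepKO in Cy5 alone (0.110).

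Of 10 assembly factors of complexes II and III, 6 were measured, the median was -0.24 and none passed the test. Sdhaf4, which protects the flavinylated Sdha before assembly, was the lowest at -0.48, -1.20, 0.013 and -0.56 (mean -0.56 ± 0.20, adjusted p 0.133 by limma), and Sdhaf2, which helps attach that flavin, was the highest at 0.088.

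Complex I, where electrons enter from NADH, was followed through 36 listed nuclear subunits. Of these 34 were measured, the median was -0.28, 28 means were below 0 and 17 genes were below 0 on every array. None of the 34 passed the adjusted threshold. At an unadjusted p below 0.05, 14 were lower, against 12.7% of all genes tested. Its lowest gene was Ndufb3 (mean -0.77 ± 0.18, adjusted p 0.0644 by limma) and its highest Ndufab1, the mitochondrial acyl carrier protein (mean 0.15). The medians of complexes II and I were -0.41 and -0.28 over both pairs, -0.21 and -0.24 in the female pair, and -0.38 and -0.43 with HepKO in Cy3 alone, so their order was not stable.

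Of 14 listed regulators of respiratory genes, 12 were measured, with a median of 0.014. Tfb2m, a transcription factor of mitochondrial DNA, fell, at -1.15, -1.26, -0.74 and -0.92 (mean -1.02 ± 0.17, adjusted p 0.0329 by limma), with an adjusted p of 0.0504 without the second male array and 0.0529 with median centring. The other 11 did not pass. Among them Nrf1, whose motif is shown above, had a mean of 0.047, Gabpa and Gabpb1, the ETS pair, had -0.15 and 0.44, Yy1 had 0.15 and the coactivator Ppargc1a had -0.39. Gabpb1 was the highest of the list. Ppara, the nuclear receptor that drives fatty acid oxidation, was the lowest of the 11, at -1.12, -1.10, -0.43 and -0.61 (mean -0.82 ± 0.20, adjusted p 0.0703 by limma).

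Markers of other liver cells moved with genotype. Their median log2 ratios were 1.87 for macrophage, 1.09 for endothelial and 0.76 for stellate and fibroblast markers. For lymphocyte and cholangiocyte markers they were 0.67 and 0.56, against 0.083 over all genes tested. Of all genes tested 12.0% were called higher. The sums given next depend most on the brightest markers of a list, so they are not a measure of its typical change. Summed linear levels of the 12 measured of 14 macrophage markers ran from 76225 to 84369 in HepKO and from 9601 to 23686 in WT, and 11 of the 12 were called higher. Endothelial markers (11 of 11 measured, 7 higher) summed to 13722 to 14515 in HepKO and 5744 to 8412 in WT. Stellate and fibroblast markers (10 of 10, 5 higher) summed to 17936 to 20671 in HepKO and 9710 to 10638 in WT, lymphocyte markers (10 of 12, 5 higher) to 2291 to 3746 in HepKO and 751 to 1012 in WT, and cholangiocyte markers (5 of 7, 1 higher) to 2986 to 6405 in HepKO and 754 to 872 in WT. Erythroid markers (3 of 6, 1 higher and 1 lower) summed to 2226 to 10033 in HepKO and 1347 to 8261 in WT. Those HepKO and WT ranges overlapped, since the sums of the female pair lay above those of the male pair in both genotypes. Within each array the HepKO sum was the higher, at 2226, 2270, 9424 and 10033 against 1347, 1542, 8082 and 8261.

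The macrophage marker Itgam, the endothelial marker Vwf, the lymphocyte markers Ms4a1 and Klrb1c, the cholangiocyte marker Epcam and the erythroid marker Slc4a1 were not well above background on any WT array. They were dim in HepKO too, and none of them passed the test (adjusted p 0.126 to 0.342 by limma). Itgam was above background on 2 HepKO arrays, Epcam on 3 and the others on 4. Bounded by the background, the mean HepKO level of Vwf, Ms4a1, Klrb1c and Slc4a1 was at least 1.28-fold (Klrb1c) to 1.35-fold (Vwf) that of WT. No bound is given for Itgam and Epcam, which were not above background on every HepKO array. Secreted proteins that mark hepatocytes, the labelled cell type, were bright in both genotypes. They summed to 1557806 to 2293589 in HepKO and 1494287 to 2027199 in WT, with 1 of 16 measured genes higher and 1 lower. Their median ratio was 0.030, but it balanced the dyes, at 0.32 with HepKO in Cy5 and -0.31 with HepKO in Cy3. Single genes of this list ranged from -1.42 to 1.67. The part of the other cell types in the ratios of the 35 genes was not tested.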

How the data were processed

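RNA labelled as hepatocyte, from 2 HepKO and 2 WT mice, was measured on 4 two-colour arrays, as 2 pairs with dyes exchanged. Samples were grouped by labels alone. The scanner software was Agilent Feature Extraction 10.2.1.3, per the file headers. The deposited intensity values are mean spot signals, unsubtracted, beside local background medians. The same files hold log10 ratios that the software had corrected for background and dye, per the file headers. The authors' deposited log10 value table of the series held the same ratios, turned to HepKO over WT, with a median of 0 in every column. Further steps are not given in the sources used here.

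Signals were corrected by normexp (offset 50) and loess within each array (limma 3.58.1, R 4.3.3). Control spots (1639 of 45018) had weight 0, and 178 to 260 flagged spots per array were left out. Spots of a probe, then the dye orientations of a pair, were averaged. Probes well above background on both arrays of a pair in a genotype were kept (22845 of 41174), and the brightest named probe stood for a gene. Accessions named 22951 probes through RefSeq GRCm38.p6, used for names and promoters only, and 18223 stayed unnamed. Levels per channel were quantile-normalized on average brightness between arrays. The limma model had an intercept on 2 pair values, moderated variances (1 residual and 3.11 prior degrees of freedom) and Benjamini-Hochberg adjustment over 11509 genes, of which 1806 (15.7%) passed: 1379 higher and 427 lower. The alternatives changed background correction, spots in the normexp fit, normalization, ratio source, filter, probe rule, dye and arrays used.

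Members, lists and the rules were chosen with earlier results of these data known. Array values are given in full for genes past the threshold, for the 3 largest mean ratios of each complex, for the largest of the other sign, and for Cycs; from other lists, for genes past the threshold, otherwise the largest in each direction. Sdhd, Atp5f1, Atp5o, Cox5a and Cox5b, the regulators beside Tfb2m and Gabpb1, and the further complex III subunits were added after their values were seen, as were the promoters of complex II genes. The values of 1 marker gene are not reported here.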

Additional observations from a re-analysis of the deposited data

Results flagged for a closer look

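The pairs differed in direction for 2 complex V genes. For Atp5f1, subunit b of the stator, the log2 ratios of HepKO over WT were -0.26 and -0.17 on the arrays of the pair labelled male and 0.16 and 0.13 on those of the pair labelled female. For Atp5o, the oligomycin-sensitivity subunit, they were -0.19 and -0.13 in the pair labelled male and 0.032 and 0.13 in the pair labelled female. Every array of one pair thus lay on the other side of 0 from every array of the other pair. The difference was not tested, because each pair is 1 replicate and sex, age and slide differ together.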

How the results depend on the processing

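Over 15 alternatives, the last of them (background population flags also left out, 31 of the 35 genes measured) chosen after seeing the data, 404 of 508 recomputed values of 34 results were taken as unchanged. For the ratio of a gene this meant the same direction and the same side of the threshold. For a number of genes called it meant equal or within a factor of 1.5, such as 929 higher against 1379 as reported. For a median it meant a move of less than the spread between pairs. That spread (SD of the 2 pair medians) was 0.304 for complex II, 0.0388, 0.0396 and 0.0327 for complexes III, IV and V, and 0.00625 for the 35 genes, so the complex II medians, from -0.57 to -0.35, stayed within a far wider tolerance than the others had. With normexp fitted on all spots no gene was called in either direction (0 higher, 0 lower, smallest adjusted p 0.0741 by limma, 3009 genes at an unadjusted p below 0.05), nor without a filter on dim probes (0.0691 and 4638). On female pair replicate 2 the green background reached 41156.5 against a median of 29. Genes called lower numbered 681 with HepKO in Cy3 alone, and 207 (without male pair replicate 2) to 577 when 1 array was left out. Members called lower were 0 with normexp on all spots, without a filter, with HepKO in Cy5 alone, and without male pair replicate 2 or female pair replicate 1, and 3 with HepKO in Cy3 alone (Cox6c, Cox7b and Uqcrfs1). Cox6c had adjusted p-values by limma of 0.121 with normexp on all spots, 0.0724 with the software's log ratios, 0.0732 with the deposited value table, 0.0790 without a filter and 0.0570 with HepKO in Cy5 alone.

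Median centring in place of loess moved the median of all genes to 0.18 and gave -0.40 for the 35 genes, -0.37 for complex III, -0.41 for complex IV and -0.38 for complex V, with 33 of the 35 genes below 0. The median of the 35 was -0.16 with normexp on all spots, -0.17 with Feature Extraction log ratios, -0.17 with the value table, -0.045 with HepKO in Cy5 and -0.25 with HepKO in Cy3. Complex III gave 0.064 (Cy5) and -0.31 (Cy3). Complex IV gave -0.071 (Cy5), -0.30 (Cy3), -0.27 with Feature Extraction log ratios, -0.27 with the value table and -0.30 with the background flags. Complex V gave 0.053 (Cy5), -0.26 (Cy3) and -0.13 with the mean over probes. Leaving out 1 array gave -0.29 to -0.055 for the 35, -0.25 to 0.013 for complex III, -0.31 to -0.10 for complex IV and -0.19 to 0.0045 for complex V.

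Signs turned for Uqcrc2 with HepKO in Cy5 (0.0095), for Cyc1 with median centring (-0.27), background flags (-0.054), HepKO in Cy3 (-0.12), and without male pair replicate 1 (-0.035) or female pair replicate 1 (-0.010; range -0.035 to 0.19 when 1 array was left out), for Cox6a1 (-0.25) and Atp5b (-0.24) with median centring, for Atp5k with HepKO in Cy5 (0.16) and without male pair replicate 2 (0.068; range -0.63 to 0.068 when 1 array was left out), and for Cycs with the mean over probes (-0.082). The named genes outside the 35 lost their calls in 35 recomputed values, in none of which the direction turned. Apart from the dyes and arrays left out by construction, the cause was not tested. Each value is a ratio within a pair, so the reported fit is already paired by mouse pair. For a further block by replicate number, no paired analysis was possible because these numbers only name dye orientations.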
